A study of Mus musculus with 8 samples.

Results

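Homeostatic microglia genes are those by which surveying microglia, the resident macrophages of the nervous system, are told from other cells in tissue that is not inflamed. The genes followed here were P2ry12, P2ry13, Tmem119, Cx3cr1, Csf1r, Siglech, Gpr34, Aif1 and Itgam. They were taken as every non-control probe of the array whose target identifier maps to 1 of these 9 symbols, which gave 15 probes of the 33972 tested, and all 15 could be tested. Of these genes, 5 had 1 probe each, and Cx3cr1, Csf1r, Siglech and Itgam had several.

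Total RNA of the whole retina of 2-week-old C57BL/6 mice was measured on 1-colour arrays in 4 Lpcat1 wildtype (WT) and 4 Lpcat1 knockout (KO) samples. LPCAT1 is an acyltransferase that makes dipalmitoyl phosphatidylcholine, and the KO lacks it in all tissues, so that changes in microglia and in other retinal cells are not separated by the model. Per the methods, the KO line was made on C57BL6/N and crossed with C57BL6/J, and mice homozygous for rd8, a retinal degeneration allele of Crb1, were left out. Nothing in the labels says that replicates were separate animals, so that the p-values measure the spread between these samples.

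In the healthy retina, microglia lie in the plexiform layers and move fine processes over neurons and synapses. They depend on CSF1R signalling to survive, sense nucleotides through P2Y receptors, and are held in check by neuronal fractalkine acting on CX3CR1. When photoreceptors die, microglia change shape, move toward the outer retina and take up debris, and the transcripts of P2ry12 and Tmem119 commonly fall in activated cells while Aif1 and phagocytic genes rise. Whole-retina RNA cannot separate a change in the number of microglia from a change in the RNA each of them holds.

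Levels are given as the log2 of the background-subtracted signal of a probe minus that of the 75th percentile of the same array, so that 0 stands for the 75th percentile and values of different probes are not set against each other. The 75th percentile signal lay between 638 and 738 over the 8 arrays. WT arrays had 35771 ± 651 probes well above background and KO arrays 34275 ± 1171 (SD, n = 4). Lpcat1 itself was lower in KO, at 72.5% of WT, a difference of -0.46 (SE 0.04, adjusted p = 0.0036, limma). Where its probe lies with respect to the deletion is not known here. All 18 retina markers, from rhodopsin to Thy1, were well above background on all 8 arrays. The arrays shared 1 slide, with WT in row 1 and KO in row 2, so that row and genotype cannot be told apart. Within each row, the slide column followed the replicate number.

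All 15 probes of the 9 genes were well above background on all 8 arrays. A gene was called when a probe passed an adjusted p of 0.05 over all tested probes (limma with Benjamini-Hochberg adjustment) and a fold change of 1.2. By that rule 1 of the 9 genes, Aif1, rose in KO and 0 fell, where 2.2% of all tested genes were called higher and 1.77% lower. With limma's unadjusted p under 0.05 the number was 7 of the 15 probes (23.8% of all tested probes), and 3 had an adjusted p under 0.05 whatever the fold (5.5% of all). Per probe, 2.92% of all tested were called, 1.38% higher and 1.54% lower.

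The mean of KO was above that of WT for 13 of the 15 probes. With 1 probe per gene, the one with the highest mean over all arrays, the difference was above 0 for 9 of 9 genes, with a median of 0.23 on the log2 scale, where the median of all tested genes was -0.02 and 42.2% of them lay above 0. Every KO value was above every WT value for 6 of the 15 probes, of Tmem119, Cx3cr1, Csf1r, Gpr34 and Aif1, and the reverse was seen for 0. Over all tested probes these shares were 6.04% and 11.4%. When the lowest-signal probe of each gene was taken, a choice made after seeing the data, the median was 0.09.

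**Figure D1:**
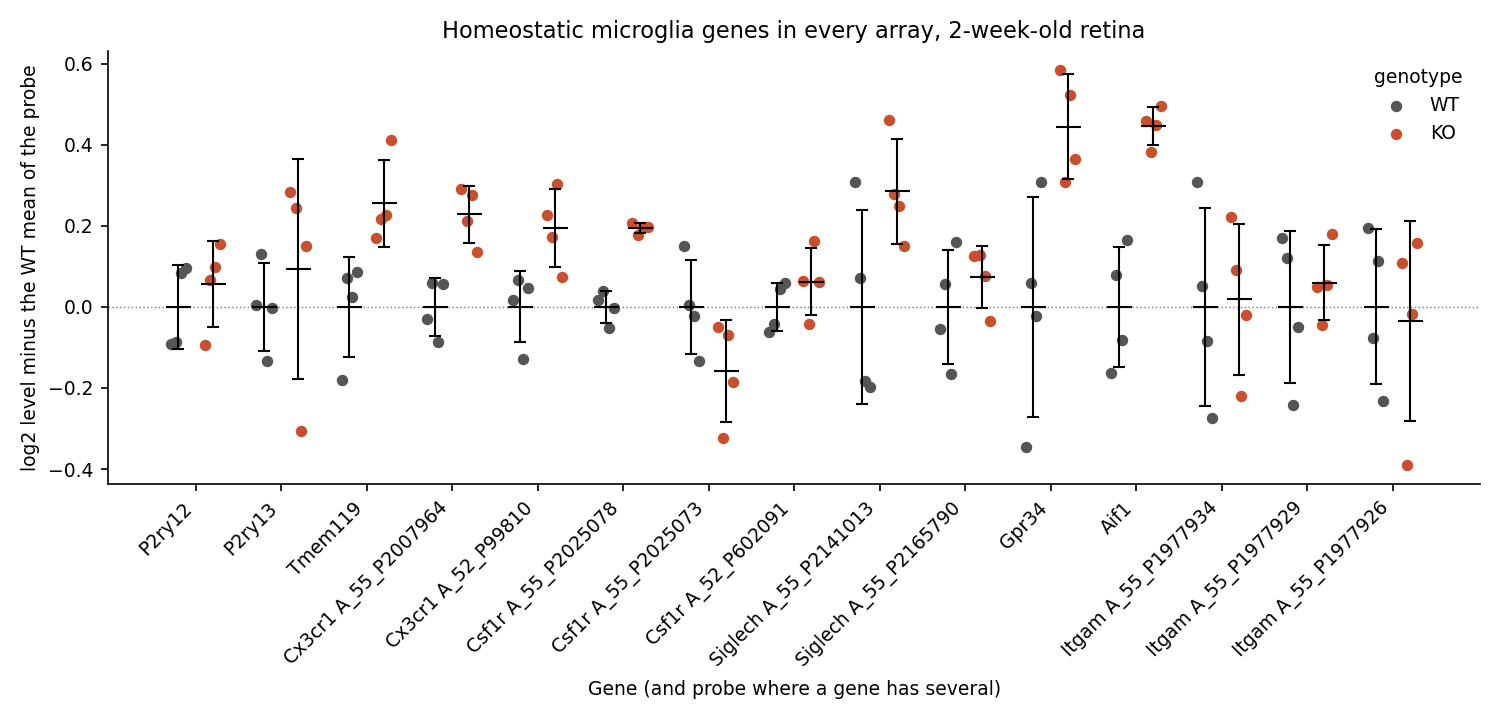
Level of each probe in each array, as the log2 level minus the WT mean of that probe, with the mean and SD of 4 WT arrays (grey) and 4 KO arrays (orange). Aif1, Tmem119, Csf1r A_55_P2025078 and both Cx3cr1 probes have all 4 KO points above all 4 WT points, those of P2ry12 and Itgam lie among each other, and the KO points of P2ry13 lie on both sides of its WT points.

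Aif1 encodes IBA1, a calcium-binding protein that bundles actin in membrane ruffles and is the usual stain for microglia. Its levels were -1.25, -1.01, -1.17 and -0.93 in the WT arrays and -0.63, -0.71, -0.64 and -0.60 in the KO arrays. All KO values lay above the highest WT value, and the gap of 0.22 was wider than the whole spread of the KO arrays. The difference was 0.45 (SE 0.07), a fold change of 1.36 (95% interval 1.21 to 1.53), with an adjusted p of 0.02 (limma). The exact two-sided permutation test gave p = 0.0286, the smallest that 4 against 4 arrays allow. In processed signal, Aif1 read 280, 354, 307 and 371 in WT and 421, 451, 409 and 447 in KO.

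The call of Aif1 was close to the threshold. It was lost when WT replicate 2 (adjusted p = 0.0513), WT replicate 3 (0.0595), KO replicate 2 (0.0502), KO replicate 3 (0.0528) or KO replicate 4 (0.0559) was left out of the limma fit, which is 5 of 8 such fits, with a difference of 0.39 to 0.50 in all 8. It was also lost without the filter on dim probes (adjusted p = 0.07) and with the replicate number as a block in the fit (adjusted p = 0.057, limma).

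P2ry12 encodes the ADP receptor by which microglial processes find sites of injury, and is among the genes most restricted to surveying microglia. Its levels were -2.70, -2.69, -2.52 and -2.51 in WT and -2.70, -2.54, -2.51 and -2.45 in KO. The groups overlapped over most of their range, and the lowest KO array read as low as the lowest WT array. The difference of 0.06 (SE 0.07) had an adjusted p of 0.667 by limma, and its 95% interval ran from 0.93-fold to 1.16-fold. A fall below 0.93-fold and a rise as large as that measured for Aif1 both lay outside this interval.

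P2ry13, another ADP receptor of microglia encoded beside P2ry12, had processed signals of 45.5 to 77.0. Its levels were -3.50, -3.37, -3.64 and -3.51 in WT and -3.22, -3.26, -3.81 and -3.35 in KO. KO replicates 1, 2 and 4 lay above every WT array and KO replicate 3 lay below all of them. The difference of 0.09 (SE 0.13) did not pass the test (adjusted p = 0.704, limma), with an interval from 0.87-fold to 1.31-fold. Without KO replicate 3 it was 0.23, the highest value among the fits that leave out an array, with an adjusted p of 0.127.

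Tmem119, a transmembrane protein found in microglia and hardly in blood-derived macrophages, read -2.35, -2.09, -2.14 and -2.08 in WT and -1.996, -1.95, -1.94 and -1.75 in KO. Each KO array was above each WT array, by at least 0.08. The difference of 0.26 (SE 0.08), or 1.19-fold with an interval from 1.06-fold to 1.35-fold, did not pass the adjusted threshold (adjusted p = 0.0896 by limma, exact permutation p = 0.0286).

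Gpr34, a receptor for lysophosphatidylserine expressed by microglia, was measured by a dim probe with signals from 43.9 to 81.7. Its levels were -3.93, -3.52, -3.61 and -3.27 in WT and -3.00, -3.27, -3.06 and -3.22 in KO. The KO arrays were all higher, but the highest WT and the lowest KO array were only 1e-04 apart. The difference of 0.44 (SE 0.13) was as large as that of Aif1, had a wider interval, from 1.103-fold to 1.68-fold, and did not pass the test (adjusted p = 0.0884, limma). With normexp background correction it was 0.22.

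**Figure D2:**
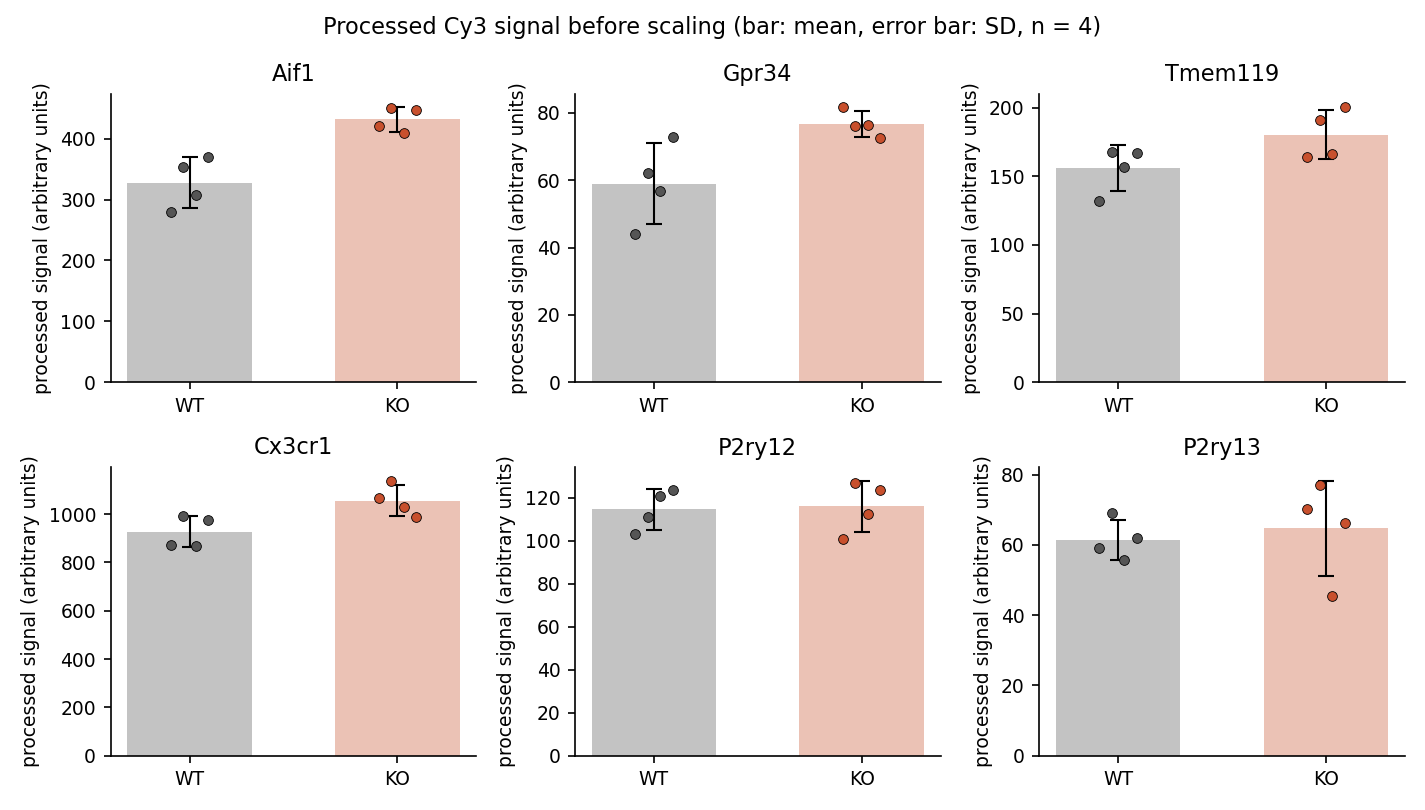
Processed Cy3 signal in arbitrary units, before scaling between arrays, of the brightest probe of 6 genes in 4 WT and 4 KO arrays, with bars at the mean and error bars of 1 SD. Aif1 runs from 280 to 371 in WT and from 409 to 451 in KO, while P2ry12 and P2ry13 overlap, and for Gpr34, Tmem119 and Cx3cr1 the highest WT signal before scaling is just above the lowest KO signal.

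Cx3cr1 encodes the receptor of fractalkine, a chemokine that neurons carry on their membrane. Its probe A_55_P2007964 read 0.38, 0.47, 0.33 and 0.47 in WT and 0.70, 0.63, 0.69 and 0.55 in KO. All KO arrays were above all WT arrays, and the difference of 0.23 (SE 0.05) had an adjusted p of 0.0464 (limma) with a fold change of 1.17, under the fold asked for a call. In the limma fits without 1 array the adjusted p was 0.0599 to 0.111, and with normexp background correction the difference was 0.15. The other probe, A_52_P99810, moved by 0.19 (SE 0.06, adjusted p = 0.111), again with all KO arrays above all WT arrays, and the change between the probes within an array did not pass the test (0.03, exact permutation p = 0.286, adjusted over 8 probe pairs 0.457). The mean of both probes differed by 0.21 with an adjusted p of 0.0396 (limma).

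Csf1r encodes the receptor tyrosine kinase for CSF1 and IL-34, on which microglia depend. Probe A_55_P2025078 read 2.29, 2.31, 2.22 and 2.27 in WT and 2.48, 2.45, 2.47 and 2.47 in KO. These were the tightest groups of the 15 probes, with SDs of 0.04 and 0.01, and they did not overlap. The difference of 0.19 (SE 0.04, fold change 1.14) had an adjusted p of 0.0252 by limma (0.0433 to 0.0692 in the fits without 1 array) and was under the fold asked for a call.

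The other Csf1r probes did not follow it. Probe A_55_P2025073 had a difference of -0.16 (SE 0.08, adjusted p = 0.277) and probe A_52_P602091 one of 0.06 (SE 0.05, adjusted p = 0.523, limma), both with groups that overlapped. The level of A_55_P2025078 minus that of A_55_P2025073 within each array was higher in all KO arrays, by 0.35 (exact permutation p = 0.0286, adjusted over 8 probe pairs 0.229). The mean of the 3 probes differed by 0.03. The higher level in KO was thus seen on the brightest Csf1r probe and not on all of them.

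Siglech encodes a sialic acid-binding lectin that in the brain marks microglia and in the periphery plasmacytoid dendritic cells. Its brighter probe, A_55_P2141013, read 7.05, 6.82, 6.56 and 6.55 in WT and 7.20, 7.02, 6.99 and 6.89 in KO. WT replicate 1 lay above 3 of the KO arrays, and the difference of 0.29 (SE 0.12) did not pass the test (adjusted p = 0.198, limma). The dimmer probe, A_55_P2165790, differed by 0.07 (SE 0.07, adjusted p = 0.592). Processed signals ran from 65375 to 96457 on the former and from 164 to 214 on the latter.

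Itgam encodes CD11b, the integrin subunit that pairs with the product of Itgb2 to form complement receptor 3, and is found on monocytes and neutrophils too. Its brightest probe, A_55_P1977934, read 4.68, 4.43, 4.29 and 4.10 in WT and 4.60, 4.47, 4.16 and 4.36 in KO. The groups lay over each other, with a difference of 0.02 (SE 0.14, adjusted p = 0.949, limma). Probes A_55_P1977929 and A_55_P1977926 differed by 0.06 (SE 0.09, adjusted p = 0.743) and -0.04 (SE 0.14, adjusted p = 0.902). Rises of over 1.26-fold and falls below 0.78-fold lay outside the intervals of all 3 Itgam probes.

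The brightest probes of Siglech and Itgam varied more between WT replicates than other bright probes. Their WT SDs were 0.24 and 0.24, where the median over 2423 probes with a level over 4 was 0.05, and only 0.908% and 0.743% of those probes had an SD at least as large. The dimmer Siglech probe did not rank the arrays as the brighter one did, since WT replicate 1 was the highest WT array on the brighter probe and not on the dimmer. The dimmer Itgam probes had WT SDs of 0.19 and 0.19. Whether these signals come from the gene's transcript alone was not tested.

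**Figure D3:**
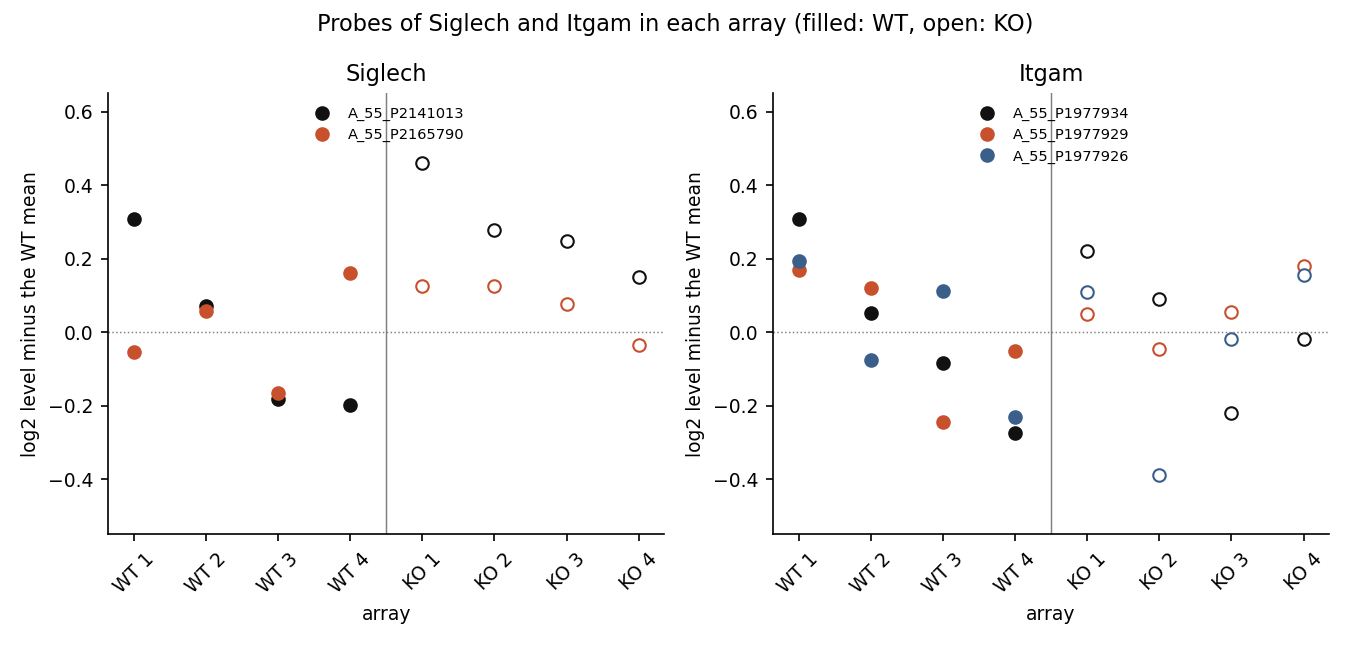
Log2 level minus the WT mean in each array for the 2 probes of Siglech and the 3 of Itgam, with WT arrays filled and KO arrays open. The brightest probe of each gene (black) covers a wider range among the WT arrays than the difference between the genotype means.

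Across arrays, 2, 2, 1 and 2 of the 9 genes were above their own mean in the WT arrays and 8, 9, 7 and 8 in the KO arrays. The mean deviation of the 9 genes from their own means was -0.13, -0.06, -0.17 and -0.09 in WT and 0.17, 0.11, 0.05 and 0.11 in KO. These means did not overlap between the genotypes. All 9 genes had a difference above 0, and each was centred on its own mean. The counts and means therefore restate those differences and are no further evidence. The genes of an array also share its scaling. KO replicate 3, with the low P2ry13 value, was the lowest of the KO arrays.

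Aif1, taken because it was the called gene, was compared with each of the others, and none of the differences in change passed the adjusted threshold. Within each array, the level of Aif1 minus that of P2ry12 was 0.39 higher in KO, minus Csf1r 0.25, minus Cx3cr1 0.22 and minus Tmem119 0.19, and in each of these every KO array was above every WT array (exact permutation p = 0.0286, adjusted over 8 comparisons 0.0571, which misses 0.05). Aif1 minus P2ry13 was 0.35 higher (exact permutation p = 0.0571) and minus Itgam 0.43 (exact permutation p = 0.0857). Against Siglech, at 0.16 (exact permutation p = 0.543), and Gpr34, at 0.00 (exact permutation p = 1), the groups overlapped.

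**Figure D4:**
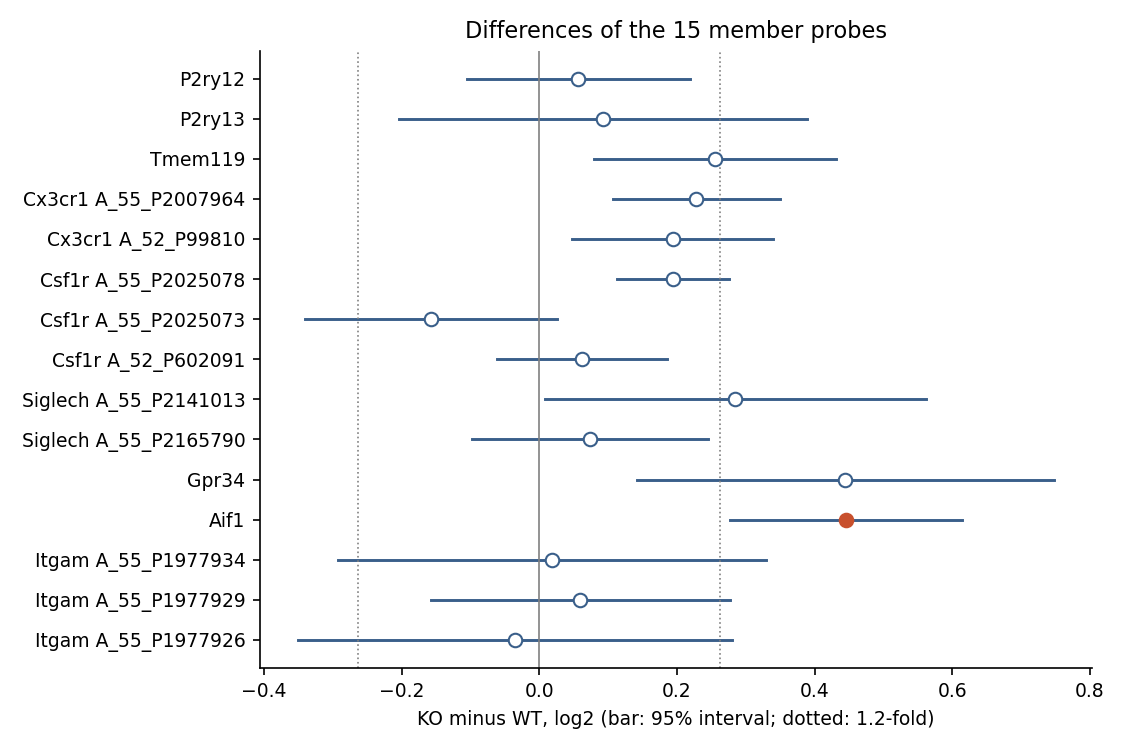
Difference of KO minus WT on the log2 scale for the 15 probes, with 95% intervals from limma, a solid line at 0 and dotted lines at 1.2-fold in each direction. The filled point, Aif1 at 0.45, is the only probe called, and the intervals of P2ry12, P2ry13 and the Itgam probes span 0.

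The RefSeq promoter table (build GRCm38.p6, from 250 bases before the start of a gene) held 6 of the 9 genes, among them P2ry13, Siglech, Itgam and Cx3cr1. The 250 bases before the start are shown for Aif1, the called gene, on chr17:35176053-35176302 (minus strand), and for P2ry12, whose groups overlapped, on chr3:59262986-59263235 (minus strand). Capitals mark matches, on either strand, to GAGGAA, a part of the element bound by PU.1-type factors that specify macrophages, and to GAAANNGAA, an IRF-type element.
Aif1: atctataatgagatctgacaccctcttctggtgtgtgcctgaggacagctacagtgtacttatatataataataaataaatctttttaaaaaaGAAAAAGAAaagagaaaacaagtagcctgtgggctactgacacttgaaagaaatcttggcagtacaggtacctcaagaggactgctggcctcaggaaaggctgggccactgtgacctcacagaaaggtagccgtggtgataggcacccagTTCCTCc
P2ry12: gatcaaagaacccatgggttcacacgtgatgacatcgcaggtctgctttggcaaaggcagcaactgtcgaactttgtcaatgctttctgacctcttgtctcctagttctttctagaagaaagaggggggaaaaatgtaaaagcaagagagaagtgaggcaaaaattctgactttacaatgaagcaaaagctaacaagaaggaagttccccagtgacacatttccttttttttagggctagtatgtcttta
The Aif1 window held a GAGGAA match on the opposite strand that begins 7 bases before the start, and 1 match to GAAANNGAA. That of P2ry12 held neither in these exact letters, though it held aaggaagt, which shares GGAA with GAGGAA. Of the 6 windows, 3 held GAGGAA (P2ry13, Itgam and Aif1), where 23.3% of 32851 promoter windows did, 1 held GAAANNGAA (7.13% of all), and 0 held the longer GAGGAAGT (2.44% of all). A match is a description of these letters and not of a bound site.

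Among ligands and partners of the 9 genes, 14 of 16 could be tested, of which 1 rose and 0 fell, with a median of 0.07. The called gene was Tyrobp, which encodes the DAP12 signalling adaptor of microglial receptors. It read -0.12, -0.02, -0.17 and -0.03 in WT and 0.46, 0.67, 0.60 and 0.52 in KO, with no overlap, and differed by 0.65 (SE 0.06, adjusted p = 0.00343, limma).

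The CSF1R ligands were Csf1, at 0.22 (adjusted p = 0.101), and Il34, the neuronal ligand, at 0.16 (adjusted p = 0.0472, limma). Cx3cl1, which encodes fractalkine, differed by 0.21 (SE 0.04, adjusted p = 0.0233). In all 3 every KO array was above every WT array, and in none did the fold reach 1.2. Itgb2, the partner of Itgam in complement receptor 3, differed by -0.23 (SE 0.07, adjusted p = 0.0866), with every KO array below every WT array. Nt5e, the ecto-nucleotidase that turns AMP into adenosine downstream of the ADP sensed by P2Y receptors, differed by -0.21 (SE 0.04, adjusted p = 0.023) and also stayed under 1.2-fold. The other genes tested, Adora3, C3, Hcst, Syk, Tgfb1, Tgfb2, Tgfbr1 and Tgfbr2, had differences of -0.05 to 0.16 and adjusted p-values of at least 0.0531 on the probe with the highest mean. On their other tested probes, C3 differed by 0.26 (adjusted p = 0.099, every KO array above every WT array), Tgfb2 by -0.03 and Tgfbr1 by -0.13, the groups of the latter pair overlapping.

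The other lists were chosen with results of these arrays known, so that their counts are not independent evidence of direction. Of 28 other genes by which microglia are identified, 23 were tested, 3 rose and 0 fell, with a median of 0.15. These were Mertk (0.50, SE 0.10, adjusted p = 0.0348), a receptor for the uptake of dying cells that Müller glia and pigment epithelium also express, Mef2c (0.31, SE 0.06, adjusted p = 0.0352), a transcription factor of neurons as well, and Ctss (0.34, SE 0.06, adjusted p = 0.0274), a lysosomal protease. Their calls were lost in 6, 7 and 5 of the 8 limma fits that leave out 1 array. The difference was above 0 for 15 of the 23. Of the list's 27 tested probes, 10 were higher on every KO array than on every WT array, and 2 were lower, those of Cst3 (-0.19, adjusted p = 0.0332) and Bin1 (-0.12, adjusted p = 0.0845, limma). Sall1 and Spi1, transcription factors that define microglia and macrophages, were well above background on 0 arrays.

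Of 14 pan-myeloid genes tested, 3 rose and 0 fell, with a difference above 0 for 9 of 14 and a list median of 0.23. They were Cd52 (0.78, adjusted p = 0.0048), Ly86 (0.46, adjusted p = 0.0154) and Fcgr3 (0.39, adjusted p = 0.0294, limma), and in the 8 fits without 1 array the call of Fcgr3 was lost in 6 and that of Ly86 in 2. Without the filter on dim probes both were lost (adjusted p = 0.0889 and 0.0591, limma). With normexp Fcgr3 was at 0.21 and not called. Among those below 0, named after their values were seen, were Hcls1 (-0.26, adjusted p = 0.0714, every KO array below every WT array), Lcp1 (-0.18, adjusted p = 0.141) and Coro1a (-0.10, adjusted p = 0.187, limma).

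Of 16 genes tested from the disease-associated programme of microglia, 5 were called higher and 0 lower. They were Ccl6 at 1.17, Spp1 at 0.65, Trem2 at 0.49, Apoe at 0.29 and Cst7, all called in each fit without 1 array. With normexp background correction Ccl6 was at 0.60 and Spp1 at 0.36. Without the filter on dim probes, the calls of Trem2 (adjusted p = 0.0517) and Apoe (adjusted p = 0.0534, limma) were lost. Cst7 was well above background on 1 of the 4 WT arrays and on all 4 KO arrays, so that it entered the test through KO alone and its fitted difference of 1.95, or 0.66 with normexp, rests on WT signals near background. Apoe is abundant in Müller glia. The median of the 16 tested genes was 0.17, which leaves out Ccl3, Ccl4, Cd86, Itgax and Ch25h, which did not pass the filter on dim probes. Of these, Ccl3, Ccl4, Cd86 and Itgax were well above background on 0 WT arrays and on 2, 3, 3 and 1 KO arrays, and read higher on every KO array than on every WT array, so that the median is no ranking of the list against the homeostatic genes. The 3 C1q genes, which encode the chains of the complement protein that opens the classical pathway, all rose, by 0.50 for C1qa, 0.54 for C1qb and 0.57 for C1qc, and C1qa lost its call in 4 of 8 such fits and without the filter on dim probes (adjusted p = 0.0723, limma). The difference between the homeostatic genes and these lists was not tested, and their values are given side by side.

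**Figure D5:**
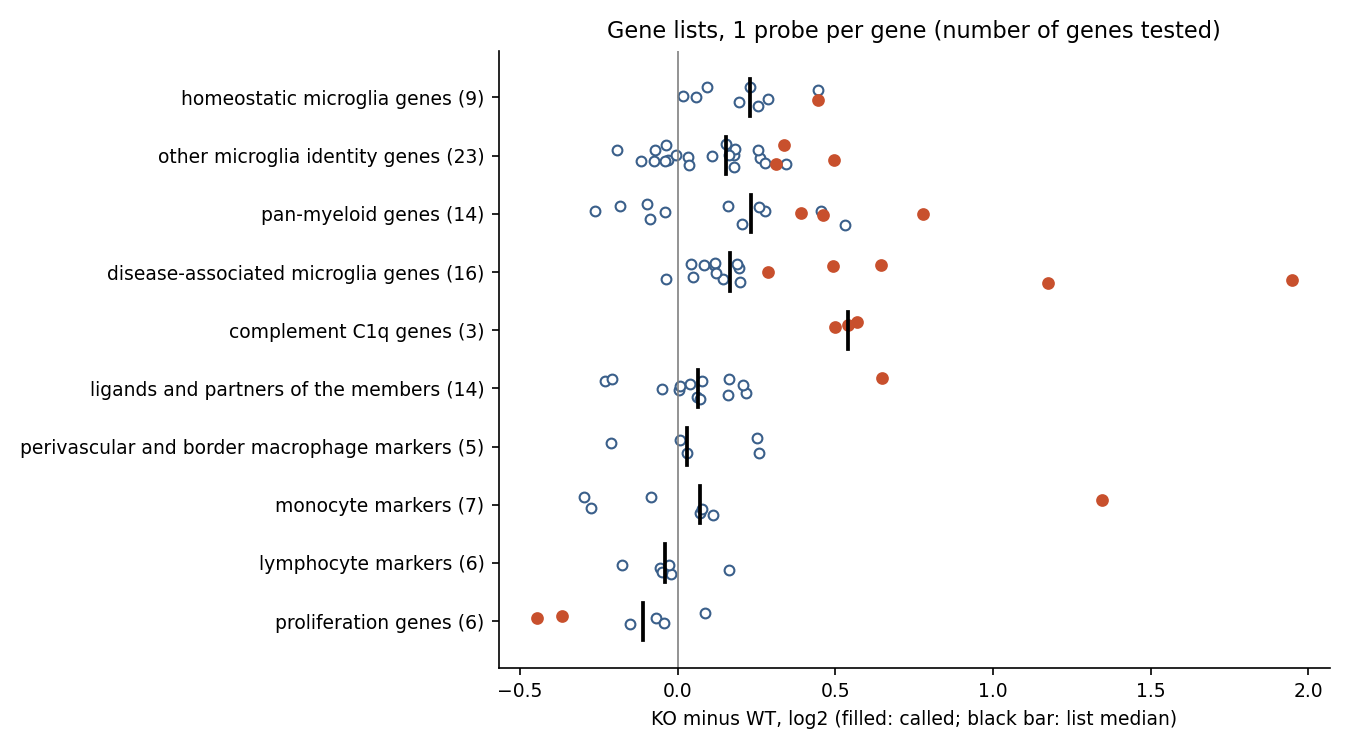
Difference of KO minus WT on the log2 scale for each tested gene, 1 probe per gene, in 10 lists with the number of genes tested in brackets. Filled points are called genes and black bars are list medians, at 0.23 for the homeostatic genes and 0.54 for the C1q genes.

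Several markers that define other leukocytes were not detected, and others were. Of 10 markers of perivascular and border macrophages, Mrc1, Cd163, Ms4a7 and Pf4 were well above background on 0 arrays, 5 were tested and 0 were called, and their summed level, as signal relative to the 75th percentile, ranged between 1.16 and 1.26 over the WT arrays and between 1.30 and 1.34 over the KO arrays. Lyve1, named after its values were seen, differed by 0.25 (adjusted p = 0.0341, limma) without reaching 1.2-fold. Ccr2 of the monocyte list was well above background on 0 arrays, and the list's summed level, between 16.4 and 20.2 over the WT arrays and between 26 and 43.4 over the KO arrays, moved with Nr4a1, at 1.35, an immediate early gene that neurons express too. No neutrophil or lymphocyte marker of the 2 and 6 tested was called. Their part in the values of the homeostatic genes was not tested.

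Genes of proliferation did not rise. Of 6 tested, Mki67 (-0.45, SE 0.08, adjusted p = 0.024) and Birc5 (-0.37, SE 0.08, adjusted p = 0.0462, limma) fell and 0 rose. On these probes both calls were lost in 7 of 8 fits without 1 array. The dimmer Mki67 probe, A_55_P2073377, was called too, at -0.51 (SE 0.09, adjusted p = 0.0209, limma), and its call was not followed through the other fits. With normexp the brighter Mki67 probe was at -0.26 and not called, and Birc5 lost its call in 9 of the 15 other settings, quantile normalization and the authors' values among them. Top2a, Cdk1, Aurkb and Bub1 were well above background on 0 arrays. These transcripts are not specific to microglia, and the list had a median of -0.11.

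The genes whose pattern over the 8 arrays was most like the mean profile of the 9 genes were Slco3a1, Efr3b, Ppfibp1, Sparcl1, Adcy8 and Rarg, out of 14920 compared, with root mean square distances of 0.022 to 0.038 on the log2 scale. Their differences ran from 0.18 to 0.24. None of them is a gene of the myeloid lists used here.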

How the data were processed

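Total RNA of 4 WT and 4 KO whole retinas was hybridised by the authors in 1 colour (Cy3) and the scans were read out in Feature Extraction 10.7.1.1. Scanner files as deposited hold intensity on a linear scale for 62976 spots per array, background-subtracted and not scaled between arrays, and the deposited table holds the authors' log2 values after a 75th percentile shift, which served only as an alternative. Genome build and aligner do not apply, and RNA quality values are not given in the sources used here.

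Here log2 of the processed intensity was taken, the 75th percentile of non-control spots was subtracted and spots of 1 probe were averaged. Outlier-flagged spots were left out. Probes well above background on all 4 arrays of a genotype (33972) were fitted with limma 3.58.1 in R 4.3.3, with no covariates and Benjamini-Hochberg adjustment over all of them. Single values were also tested with the exact two-sided permutation test. Probe identifiers were named through the RefSeq gene table, which gave 26413 of 55681 probes a symbol. All probes of the 9 genes, all tested ligands and partners, the called genes of the other lists and the 6 genes nearest in profile could be named. The 9 genes and all lists were chosen with earlier results of these data known. In simulated data for this comparison, 121 of 150 probes changed by at least 0.5 were called, with 9 false calls among 33950 probes. The largest difference of the 9 genes was 0.45, below the sizes counted here, so that this rate does not apply to them. Figures were drawn with matplotlib 3.10.9. All per-sample columns could be assigned to arrays. The number of arrays limits the precision.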

Additional observations from a re-analysis of the deposited data

How the results depend on the processing

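The count of the 9 genes called higher was 1 in the main setting and 0 without the filter on dim probes, with a fold change over 1.5 and with the replicate block, and 3 with no minimum fold change (Cx3cr1 and Csf1r added) or an adjusted p under 0.5 (Siglech and Gpr34 added). It was 0 to 1 over the fits without 1 array. The count of genes called lower was 0 in all settings run. The median of the 9 genes was 0.18 to 0.25 over the planned settings, and 0.0928 with the lowest-signal probe of each gene, chosen after seeing the data. Over all tested probes, 992 were called in the main setting, 660 with a median shift, 246 without the filter, 1869 with no minimum fold change, 138 with a fold change over 1.5, 3136 with an adjusted p under 0.5, 395 with the replicate block and 369 (without WT replicate 2) to 1183 in the fits without 1 array, where fewer samples enter. Apart from these fits, the cause of each shift was not tested. Without the filter, the calls of Mertk, Mef2c, Ctss, Nr4a1, Mki67 (brighter probe) and Birc5 were lost too (adjusted p 0.0591 to 0.12). The mean of a gene's probes gives no count over probes. Of the 15 probes, those of Itgam changed sign, A_55_P1977926 to 0.0224 with cyclic loess, 0.0414 with normexp, and -0.112 to 0.083 in the fits without 1 array, A_55_P1977934 to -0.0733 to 0.1207, and A_55_P1977929 to -0.0211 to 0.1167 in these fits. Their differences were not called in any setting. All other probes of the 9 genes kept their direction in all settings run.

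The labels share replicate numbers, which are also the slide columns in both genotypes, and neither the labels nor the methods name a pairing. The deviations of same-numbered WT and KO arrays correlated at 0.0369 to 0.2488, with 2 of 4 pairs over 0.1. Of the 8 arrays, 7 correlated best with their own number. Whether the number stands for paired samples or for the slide column was not tested. With the replicate block Aif1 had an adjusted p of 0.057 (limma), and the calls of Trem2 (0.0618), Mertk, Mef2c, Ctss, Fcgr3, Mki67 (brighter probe) and Birc5 were lost too (adjusted p 0.0517 to 0.0831). The dim probes of Gpr34, P2ry13 and Itgam lay closest to background, and slide row and genotype cannot be told apart.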
